A study of Mus musculus with 12 samples.

Results

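Concanavalin A (ConA) is a plant lectin that activates T cells and, when given to mice by vein, leads to an immune-mediated hepatitis. The comparison described here set the liver transcripts of the 3 mice killed 6 h after ConA injection against those of the 3 mice killed 1 h after it, 6 of the 12 arrays of the series, and asked which of the first responses had ended by 6 h and which responses were new. All animals were male Balb/c mice of 8 to 10 weeks, whole liver was used, and the dose was 20 mg/kg into the tail vein. The 3 arrays of the control group (0 h, labelled untreated, although the methods describe an injection of PBS) gave the starting level, and the 3 arrays of the 3 h group, which also entered the estimate of the spread, describe levels between the 2 times. No vehicle group was sampled at 1 h or at 6 h, so the time after ConA and the time of day cannot be told apart.

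Each value is a signal of a short-oligonucleotide array (Affymetrix Mouse Genome 430 2.0) on a linear scale without a unit. Signals under 3.04, the 20th percentile of the whole table, were set to that floor, and differences are given on the log2 scale, where 1 is a doubling. Of 18193 genes with a probe of their own, 1978 (10.9%) had risen from 1 h to 6 h and 2572 (14.1%) had fallen (limma, Benjamini-Hochberg adjusted p under 0.05, used for every call below). The median difference over all genes was -0.01. Of the 4550 genes called, 4518 had 3 arrays of one time wholly beyond the 3 of the other, against 2301 of the 13643 genes not called. The median signal of an array lay between 17.4 and 19.0 at 1 h and between 17.8 and 20.4 at 6 h. The ratio of 3' to 5' signal, a measure of RNA length, was 0.875 to 0.979 for Gapdh and 2.13 to 2.46 for beta-actin at 1 h, and 0.947 to 0.986 and 1.92 to 2.15 at 6 h, so both times overlapped in both ratios. In whole liver, fewer cells of a type and less RNA per cell cannot be told apart, which applies to every marker given below.

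As background, a cell that meets an inflammatory signal first transcribes immediate-early genes, whose factors are already in place and whose mRNAs decay fast. The products of this first wave, among them transcription factors, cytokines and inhibitors of the signal itself, then shape later waves. Interferon-inducible genes and acute-phase genes are the best known later programs of an inflamed liver, and lowered metabolic gene expression in hepatocytes is a known companion of the acute phase.

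To sort the genes, the calls of 6 h against 1 h were read together with those of 1 h and of 6 h against the control group. At 1 h, 272 genes (1.50%) stood above the control group and 27 (0.148%) below it; at 6 h these numbers were 2803 (15.4%) and 2307 (12.7%). These 3 comparisons share their arrays, so the classes below are a description and no test of one comparison by another. Of the 272 early rises, 61 were lower at 6 h than at 1 h, 95 were higher still, and 116 had no call between 1 h and 6 h but stood above the control group at 6 h. Among the 61, 30 had no call against the control group any more and are called ended, 27 were still above it, and 4 were now below it. Against these stood 1639 new rises, with no call at 1 h and higher at 6 h than at both other times, and 1966 new falls. Without a call against the control group, 235 further genes had risen and 542 had fallen between 1 h and 6 h. A class rests on missing as well as on passed calls, and a gene with no call at 1 h may still have begun to move.

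**Figure D1:**
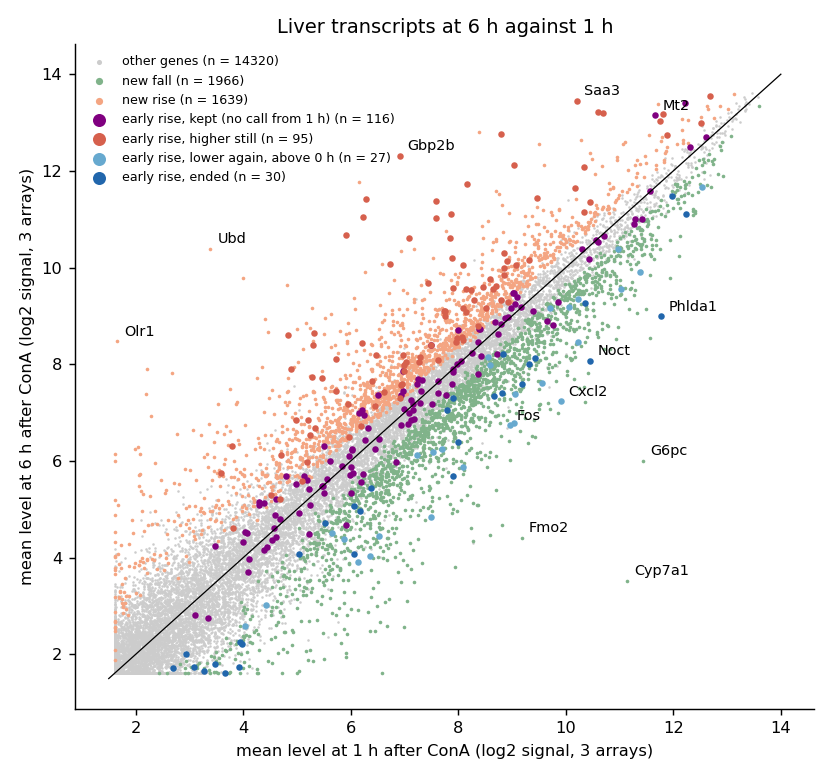
Mean level of each of the 18193 genes at 1 h (horizontal axis) and at 6 h (vertical axis), both as log2 signal over 3 arrays, with the classes in colour and the line of equal levels. The 30 ended genes lie below the line and Ubd, Olr1 and Gbp2b far above it, while Cyp7a1 has the largest distance below it.

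No contrast with the 3 h group was used to define these classes, although the 3 h arrays entered the fit and so its estimate of the spread. The median of the ended genes stood 1.42 above the control group at 1 h, 0.15 at 3 h and 0.12 at 6 h. For the early rises that were lower again but above control, the medians were 3.90, 2.28 and 1.95. The early rises that were higher still had medians of 1.26, 2.60 and 2.89, so most of their further rise was present at 3 h. New rises had medians of 0.13, 0.25 and 1.06, and new falls of 0.03, -0.59 and -0.96. At 3 h the mean level was nearer the 6 h level than the 1 h level in 26 of the 30 ended genes (86.7%). It was so in 77 of the 95 early rises that went higher (81.1%). The same held for 388 of the 1639 new rises (23.7%) and 1356 of the 1966 new falls (69%). Of genes with no call at 1 h against control or between 1 h and 6 h, the share was 48.9%. Of the 542 genes that had fallen without a call against control it was 88.6%, so this nearness was not particular to ended genes. The 3 h arrays were dimmer as a group, with a median difference from 1 h of -0.31 over all genes.

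**Figure D2:**
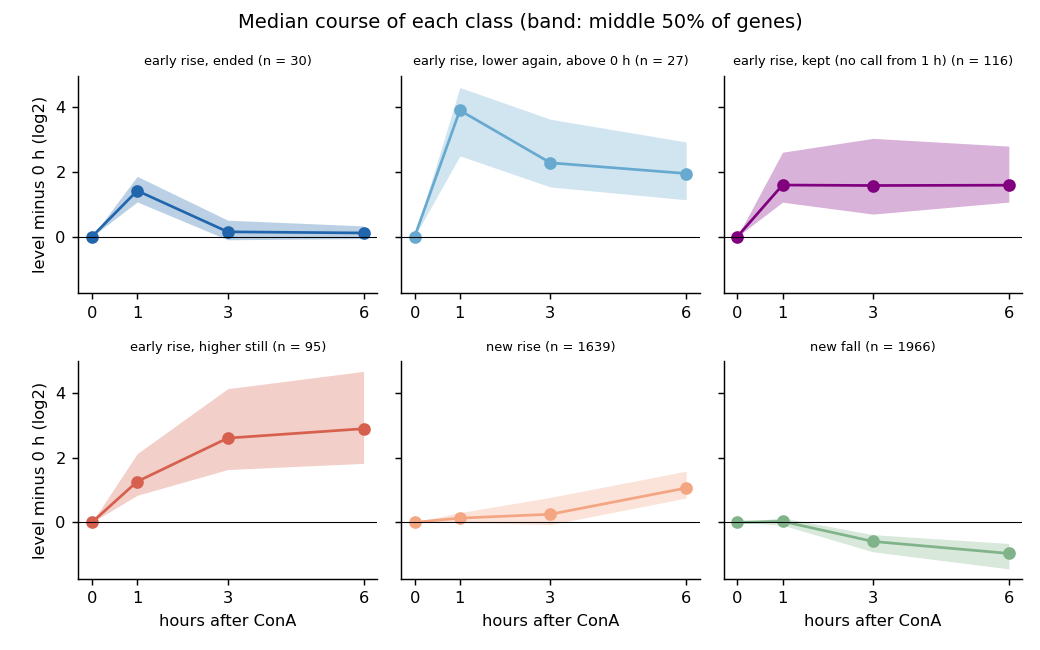
Median level of each class at 0, 1, 3 and 6 h after ConA, as the log2 difference from the control group, with the middle 50% of genes as a band. Ended genes were back near 0 at 3 h, whereas new rises had a median of 0.25 at 3 h and 1.06 at 6 h.

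The promoters of early genes that went down again and of early genes that rose further are shown for 4 genes as examples of where the letters of a kappa B-like site and of an interferon-stimulated response element (ISRE) lie. RefSeq promoter sequences (GRCm38.p6) were searched over the 250 bases before the start site, on both strands, for GGANTTTCC (kappa B-like), GAAANNGAA (ISRE-like), TGACGTCA (cAMP response element), TTCNNNGAA (GAS), GAANNTTC (heat shock element core) and the CArG box. The search also took in the TATA box, spelled TATAAA, and the AP-1 site, spelled TGANTCA. Cxcl2 and Nfkbia carry the kappa B-like letters in capitals, and Socs1 and Gbp2 the ISRE-like letters in capitals, with the sequences written 5′ to 3′ in the direction of the gene. These 4 were picked after the matches and the values of the genes were known.
Cxcl2, chr5:90903649-90903898, plus strand: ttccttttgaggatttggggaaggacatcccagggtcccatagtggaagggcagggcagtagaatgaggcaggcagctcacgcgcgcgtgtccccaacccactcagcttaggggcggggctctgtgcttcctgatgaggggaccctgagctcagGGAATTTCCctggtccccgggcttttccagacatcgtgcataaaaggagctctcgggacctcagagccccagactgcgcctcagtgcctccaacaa
Nfkbia, chr12:55492648-55492897, minus strand: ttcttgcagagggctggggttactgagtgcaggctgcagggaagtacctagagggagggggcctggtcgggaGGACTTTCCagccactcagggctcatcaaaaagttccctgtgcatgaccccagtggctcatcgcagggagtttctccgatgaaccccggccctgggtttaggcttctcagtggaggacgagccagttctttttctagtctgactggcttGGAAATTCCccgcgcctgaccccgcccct
Socs1, chr16:10785537-10785786, minus strand: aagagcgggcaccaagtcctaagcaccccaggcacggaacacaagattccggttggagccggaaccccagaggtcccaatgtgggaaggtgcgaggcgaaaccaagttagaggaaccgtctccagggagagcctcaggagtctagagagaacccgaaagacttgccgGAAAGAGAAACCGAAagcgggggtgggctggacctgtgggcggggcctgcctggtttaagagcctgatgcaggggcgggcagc
Gbp2, chr3:142620413-142620662, plus strand: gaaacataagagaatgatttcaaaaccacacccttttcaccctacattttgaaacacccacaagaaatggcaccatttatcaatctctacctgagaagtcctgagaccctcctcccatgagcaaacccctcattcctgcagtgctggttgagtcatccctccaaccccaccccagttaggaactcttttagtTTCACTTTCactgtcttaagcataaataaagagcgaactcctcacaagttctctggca

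The kappa B-like letters stood in 1 place in Cxcl2 and in 2 places in Nfkbia, at -96 and at -178 and -29 from the start site. The match at -29 in Nfkbia lies on the opposite strand. A match to the ISRE-like letters at -53 in Nfkbia and one to the AP-1 letters at -102 in Gbp2 are not in capitals. In Socs1 a pair of ISRE-like matches at -83 and -77 overlap, and in Gbp2 the match at -58 lies on the opposite strand. Of the 27 early rises that were lower again but above control, 20 had promoters in the table. The kappa B-like letters stood in 4 of their 26 promoters (15.4%). Of all 32841 promoters 350 (1.07%) held them, and of the 18106 promoters of genes tested 207 (1.14%). The ISRE-like letters stood in 18 of 93 promoters (19.4%) of the early rises that were higher still. Of all promoters 2342 (7.13%) held them, and 6.32% of those of genes tested. None of the 93 promoters held the kappa B-like letters. The ISRE-like share of the genes that were lower again, 4 of 26 promoters (15.4%), was near that of the genes that rose further. Among ended genes, the shares were 2 of 36 promoters (5.56%) for the kappa B-like and 3 of 36 (8.33%) for the ISRE-like letters. Early rises with no call between the times held the kappa B-like letters in 11 of 125 promoters (8.8%) and the ISRE-like letters in 13 (10.4%). The kappa B-like letters were thus not particular to the genes that were lower again. The GAS letters stood in 15.1% of promoters of genes higher still and 12% of those with no call between the times. They stood in 3.85% of those lower again, 5.56% of those ended and 6.21% of those of genes tested. The letters TGANTCA of an AP-1 site were found in 4 of 26 promoters (15.4%) of the genes that were lower again and in 8 of 93 (8.6%) of those higher still. They stood in 6.75% of all promoters and in 5.62% of those of genes tested. The TATA box letters stood in 20.4% of promoters of genes higher still, 19.2% of those lower again and 13.9% of those ended. The share was 8% with no call between the times and 8.8% for genes tested. The cAMP response element stood in 6.4% of promoters with no call between the times, 3.85% of those lower again and 2.15% of those higher still, against 2.12% for genes tested. These are counts of letters in a window and not of bound sites, and genes with several promoters were counted once for each.

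Of the ended responses, the largest difference was that of Phlda1, which codes for a pleckstrin homology-like protein linked to cell death. Its signal was 3529, 3890 and 3170 on the 1 h arrays and 677, 421 and 464 on the 6 h arrays, against 796, 635 and 1341 in the control group. All 6 h arrays were far below all 1 h arrays, and they overlapped the control group (difference from 1 h -2.79, SE 0.27, adjusted p = 0.00012). The 95% interval of its 6 h difference from control, -1.39 to -0.18, did not include 0, although the adjusted test made no call, and its 3 h arrays still read 2174 to 2631. Noct, a rhythmically expressed phosphatase, had 1232, 1360 and 1651 at 1 h and 182, 374 and 283 at 6 h, with 359, 324 and 402 in the control group. Its 1 h arrays stood alone above the other groups, the 3 h arrays at 242 to 326 included (-2.39, SE 0.25, adjusted p = 0.00017). Ccn2, the secreted connective tissue growth factor, read 259, 287 and 189 at 1 h and 41.1, 56.6 and 60.2 at 6 h, within the control range of 34.6 to 76.4. Its difference of -2.22 (SE 0.33) had an adjusted p of 0.0011.

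Dnajb1, a cochaperone of Hsp70 and the only ended gene of the heat shock list, had signals of 606, 505 and 642 at 1 h and 208, 199 and 176 at 6 h, where the 6 h group was again near the control values of 185, 152 and 164 (-1.58, SE 0.21, adjusted p = 0.00055). Dusp6, a phosphatase that inactivates ERK and the only ended gene of the MAP kinase phosphatase list, had 580, 402 and 283 at 1 h and 186, 142 and 161 at 6 h, and 141, 187 and 182 in the control group. Its 3 h arrays, at 181 to 199, were already down, and Dusp6 left the class under 6 of the 9 omissions of an array. Zfp46, a zinc finger gene, fell from 216 to 313 at 1 h to 67.8 to 97.5 at 6 h, with 56.1 to 99.1 in the control group (-1.60, adjusted p = 0.0025). Sgk1, a glucocorticoid-inducible kinase, Alas1, the rate-limiting enzyme of heme synthesis, and Lpin1, a phosphatidate phosphatase, were lower at 6 h by -1.28, -1.13 and -1.09, and were named after their values were seen. For Sgk1 the interval of the 6 h difference from control, 0.02 to 1.08 did not include 0.

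The other ended genes that the naming rule gave were dim. Scube1, an EGF-domain surface protein, was at the floor on all control arrays, read 22.5, 7.6 and 20.1 at 1 h and 3.7, 3.3 and floor at 6 h. Col4a3, a type IV collagen chain, read 14.6, 14.9 and 16.8 at 1 h and 7.0, floor and 5.2 at 6 h. Arrdc5, an arrestin-domain gene, and Slc6a11, a GABA transporter, peaked at 12.3 and 14.2 at 1 h and lay at 5 or less at 6 h. In all, 9 of the 30 ended genes had a mean 1 h signal under 16, near the lower limit of what these arrays resolve, and the differences in the class ran from -2.79 to -0.48. Of the 30, 26 lay within 0.5 of the control level at 6 h, and the differences from it ran from -0.79 to 1.09, so that a missing call is not a measured return for each gene. The class was small and depended on the arrays: leaving out 1 array at a time gave between 21 and 42 ended genes, and of the 30, between 11 (without the first 1 h array) and 25 were found again. Sgk1, Noct, Rnd3, Dnajb1, Glipr1, Arrdc5 and 4833438C02Rik stayed in the class under each of the 9 omissions.

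Tsc22d3, Extl1, Dnajb4 and Mapk4 had risen at 1 h and were below the control group at 6 h. Tsc22d3, a glucocorticoid-induced leucine zipper protein, read 862, 867 and 1006 at 1 h and 198, 280 and 279 at 6 h, with 490, 383 and 518 in the control group. Every 6 h array was under every control array, as was every 3 h array at 152 to 163 (6 h against 1 h -1.87, SE 0.16, adjusted p = 6.8e-05). Extl1, a glycosyltransferase of the exostosin family, went from 90.6, 81.8 and 77.2 to 20.3, 18.4 and 15.9, and Dnajb4, another Hsp40 chaperone, from 753, 644 and 711 to 301, 243 and 240. Mapk4, an atypical MAP kinase, was at or under 10.5 throughout and had 2 of its 6 h arrays at the floor. Dnajb4 and Extl1 each left this class under 6 of the 9 omissions of an array, and Mapk4 under 4.

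The early rises that were lower again but still above control were led by inflammatory mediators and immediate-early genes. Cxcl2, a chemokine for neutrophils, read 967, 1145 and 814 at 1 h and 75.3, 106 and 432 at 6 h, with 8.8 or less in the control group. The 6 h array of replicate 3 stood well above the others, and 6 h was still 4.88 above control (6 h against 1 h -2.68, SE 0.60, adjusted p = 0.010). Il1a, which codes for interleukin-1 alpha, went from 204, 220 and 133 to 33.3, 29.3 and 23.9, and Il1b, the beta form, from 631, 600 and 379 to 155, 102 and 83.1. Both were above the control arrays on every 6 h array, with control signals of 13 to 17.9 for Il1a and 20.3 to 28.0 for Il1b (Il1a -2.67, adjusted p = 5.3e-05, and Il1b -2.26, adjusted p = 0.00030). Ccl3, a chemokine for monocytes, was at the floor on all control arrays, 93.1, 127 and 65.6 at 1 h and 28.4, 14.3 and 25.2 at 6 h.

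Fos, a subunit of the AP-1 transcription factor, read 533, 686 and 335 at 1 h and 88.4, 105 and 131 at 6 h, against 13.8 or less in the control group (-2.22, SE 0.49, adjusted p = 0.0093). The immediate-early factor Egr3 went from 78.9, 120 and 57.4 to 17.2, 17.3 and 14.5 on the probe used, while another probe of this gene was called higher at 6 h, so its direction is uncertain. Gem, a small GTPase, went from 76.5, 76.6 and 59.1 to 18.1, 11.1 and 16.8. Hspa1a, the inducible Hsp70, had 287, 187 and 376 at 1 h, 14.7 to 46.3 at 3 h and 87.5, 35 and 65.3 at 6 h, with 11.2 to 24.2 in the control group. Its 3 h arrays overlapped the control group while its 6 h arrays were above it, and Hspa1a changed class under 4 of the 9 omissions of an array. The class as a whole had a median of 8.59 (log2 signal) at 1 h and 6.78 at 6 h, against 4.55 in the control group, and its 27 differences between 6 h and 1 h ran from -2.68 to -0.40. Nfkbia, the NF-kB inhibitor whose promoter is shown above, belonged to it with a difference of -0.86.

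**Figure D3:**
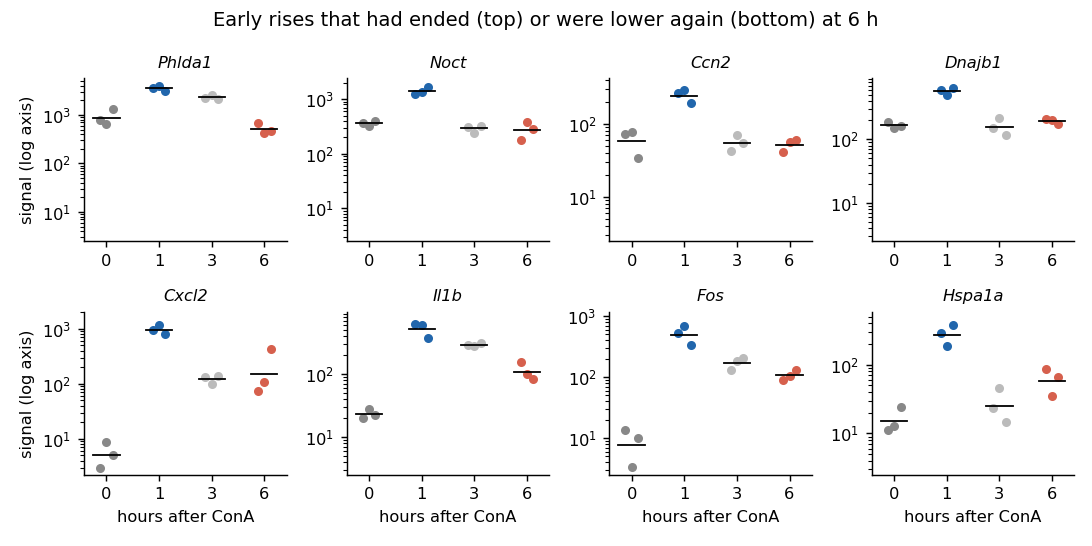
Signal on each array (points, log axis) and geometric mean (bars) of 4 ended genes (top) and 4 genes that were lower again but above control (bottom) at 0, 1, 3 and 6 h after ConA. The 1 h arrays of Noct stand alone above all other groups, whereas the 6 h arrays of Fos, 88.4 to 131, lie between the 1 h and the control arrays.

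Most early rises were not called lower at 6 h. Among the 116 with no call between the times, the largest early rise by that measure was that of Gadd45g, a growth arrest gene, at 6.21 above control at 1 h and 6.23 at 6 h (difference 0.02, 95% interval -1.33 to 1.36). The chemokine genes Ccl2, Cxcl10 and Cxcl1 differed between 6 h and 1 h by 0.71 (-0.27 to 1.69), -0.06 (-0.85 to 0.73) and 0.09 (-0.23 to 0.42). These intervals, wide for Gadd45g and Ccl2, bound the change and do not show that there was none. Tnf, the cytokine tumour necrosis factor, was at the floor on all control arrays and read 62.3, 62.4 and 56.5 at 1 h and 42.6, 6.7 and 58.6 at 6 h. Its second 6 h array stood apart from the other arrays, and the difference of -1.24 (-2.73 to 0.26) was not called (adjusted p = 0.23). These genes were named after their values were seen. The metallothioneins Mt1 and Mt2, metal-binding proteins of the stress response, had all 6 h arrays above all 1 h arrays, from 4394 to 4986 up to 10609 to 11038 for Mt1 and from 3177 to 3285 up to 8979 to 9144 for Mt2. They were not called (adjusted p = 0.12 and 0.070) in the fit over all 4 groups, whose control arrays ranged from 134 to 790 for Mt1. With only the 6 arrays of 1 h and 6 h, the adjusted p was 0.0027 for Mt1 and 0.0015 for Mt2.

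The 95 early rises that were higher still at 6 h were led by interferon-inducible genes. Gbp2b, a guanylate-binding protein of cell-autonomous defence, read 138, 141 and 88.6 at 1 h and 5474, 5153 and 4653 at 6 h, against 36.8 to 68.7 in the control group, so the first rise was small beside the second (5.40, SE 0.25, adjusted p = 3.8e-06). Gbp2, of the same family, went from 85.2, 88.7 and 55.9 to 2236, 2263 and 1897 (4.82, SE 0.25, adjusted p = 6e-06). Tifa, an adaptor of NF-kB signalling, went from 97.8, 86.4 and 56.8 to 2299, 3005 and 2951 (5.13, SE 0.23, adjusted p = 3.3e-06). Calhm6, a membrane channel gene, Gbp6 and Gbp7 had 6 h signals of 1211 to 2016, 6542 to 7448 and 3196 to 3579. At 1 h these had been 42.9 to 77.8, 300 to 599 and 224 to 323. Cxcl11, a chemokine for activated T cells, read 214, 220 and 151 at 1 h and 3001, 2825 and 2248 at 6 h. Socs1, an inhibitor of cytokine signalling, read 29.8, 28.7 and 27.4 at 1 h and 472, 380 and 331 at 6 h. For all 8 of these genes the 3 h arrays were above all 1 h arrays. The size of this class depended most on 2 arrays: without the first 1 h array it held 53 genes and without the second 47. The other omissions gave 71 to 109 genes. Membership depended on the control arrays too. Of the 95, 60 were found again without control replicate 1 and 56 without control replicate 3.

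New rises were led by Ubd, which codes for a ubiquitin-like protein that marks proteins for the proteasome. Its signals were 7.3, 17.9 and 8.8 at 1 h, against 6.0 to 13.8 in the control group (difference 0.14, not called). At 6 h they were 1658, 1352 and 1070, the largest rise in the comparison (7, SE 0.40, adjusted p = 8.6e-06). Olr1, a scavenger receptor for oxidised lipoprotein, was at the floor on 2 of the 1 h arrays and 3.3 on the third, and read 336, 341 and 395 at 6 h (6.83, SE 0.11, adjusted p = 3.7e-09). Both were already high at 3 h, at 339 to 551 for Ubd and 180 to 216 for Olr1. A2m, the protease inhibitor alpha-2-macroglobulin, followed another course, with 19.9, 15.1 and 13.5 at 1 h, 13.1 to 21.8 at 3 h and 483, 1135 and 1244 at 6 h (5.79, SE 0.47, adjusted p = 5e-05). Gzmb, the granzyme of cytotoxic lymphocytes, was at the floor on 2 of the 1 h arrays and 10.8 on the other, 36.9 to 44.6 at 3 h and 311, 201 and 219 at 6 h.

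Irak3, an inhibitor of Toll-like and interleukin-1 receptor signals, went from 7.7, floor and 4.1 to 158, 199 and 148. Ccl11, the chemokine eotaxin, went from floor, 7.7 and 11 to 214, 247 and 218, and Ch25h, which makes 25-hydroxycholesterol, from 36.6, 25 and 24.5 to 817, 762 and 812. Acod1, which makes itaconate in activated macrophages, read 11.1, 3.4 and floor at 1 h and 171, 97.0 and 109 at 6 h, below its 3 h signals of 204 to 273. The predicted gene BC023105, which the naming rule passed over, rose by 5.63, from 44.3 to 100 at 1 h to 3294 to 3859 at 6 h. A further 31 genes called higher had all 1 h arrays at the floor, so that only a lower bound could be given. Aldh1a3, which makes retinoic acid, rose at least 23.3-fold (adjusted p = 6e-06), Reg3g, a C-type lectin, at least 20.9-fold and Il21, the T cell cytokine interleukin-21, at least 9.77-fold.

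Of the new falls, Cyp7a1, which starts the conversion of cholesterol to bile acids, had the largest difference. It read 2052, 3178 and 1756 at 1 h and 11.8, 25.2 and 5.1 at 6 h, with 14.2 to 61.8 at 3 h and 579 to 2747 in the control group (-7.61, SE 0.76, adjusted p = 0.00014). G6pc, the last enzyme of glucose release, read 2804, 4243 and 1759 at 1 h, between floor and 33.7 at 3 h and 19.2, 107 and 130 at 6 h (-5.42, SE 0.93, adjusted p = 0.0025). Ppargc1a, a coactivator of gluconeogenesis and mitochondrial genes, went from 291, 305 and 336 to 17.6, 23.7 and 20.2. The 1 h means of these 3 genes were 0.72, 0.72 and 0.66 above the control group, without a call. Fmo2, a flavin monooxygenase, read 554, 579 and 608 at 1 h and 19.8, 30.7 and 15.6 at 6 h (-4.77, SE 0.32, adjusted p = 2e-05), and was at 112 to 245 at 3 h.

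Several of the largest falls were genes known from cells other than hepatocytes. Clec14a, a lectin of endothelial cells, went from 82.5, 58.4 and 45.0 to 4.8, floor and 3.9, and Cavin2, a protein of caveolae, from 310, 249 and 192 to 17.2, 12.3 and 12.8. Cd163, the haemoglobin scavenger receptor of macrophages, read 137, 122 and 139 at 1 h, 41.6 to 58.1 at 3 h and 8.2, 9.8 and 8.0 at 6 h (-3.94, SE 0.14, adjusted p = 2e-06). Sucnr1, the succinate receptor, went from 161, 101 and 128 to 13.3, 5.1 and floor, and Gdf10, a growth factor of the TGF-beta family, from 112, 112 and 86.0 to 7.3, 9.5 and floor. Marveld1, a membrane protein, read 491, 372 and 493 at 1 h and 28.1, 17.7 and 34.1 at 6 h, and Nrep 459, 518 and 243 at 1 h and 31.6, 25.6 and 13.2 at 6 h. Fam13a was at 62.3 to 135 at 1 h and 7.9 or less at 6 h. Among the 12 largest falls, none had a call at 1 h against the control group. Of 30 genes called lower with all 6 h arrays at the floor, Setd4 was at least 31.5-fold lower, the smooth muscle gene Smtn at least 10.5-fold and the growth factor gene Bmp6 at least 8.65-fold.

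**Figure D4:**
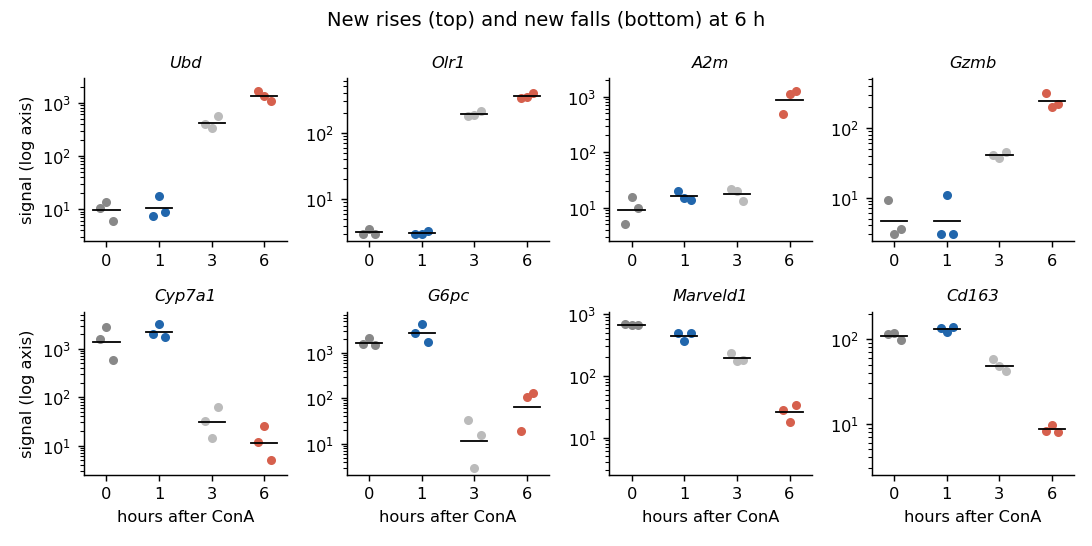
Signal on each array (points, log axis) and geometric mean (bars) of 4 new rises (top) and 4 new falls (bottom) at 0, 1, 3 and 6 h after ConA. Ubd and Olr1 were already high at 3 h, whereas A2m was between 13.1 and 21.8 at 3 h and at 483 or more at 6 h.

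Early falls were few. Of the 27 genes below control at 1 h, 9 were higher again at 6 h, 15 had no call between the times and 3 fell further. Nos1ap, an adaptor of nitric oxide synthase, read 64.9 to 66.9 in the control group, 35.9, 28.7 and 29.0 at 1 h and 191, 221 and 158 at 6 h, so it passed its starting level (2.60, SE 0.14, adjusted p = 6e-06). Adam22, Bcas1, Sync, Cphx3 and Palb2 were dim, between floor and 11.8 at 1 h and 7.6 to 28.7 at 6 h, and were near the control level at 6 h. Mup10, a major urinary protein, continued down from 1500 to 1876 in the control group through 837, 698 and 970 at 1 h to 216, 175 and 171 at 6 h. Wee1, a kinase that delays mitosis, did so from 248 to 329 through 124, 75.1 and 89.7 to 36.1, 39.6 and 43.5, and Ppp1r9a, an actin-binding protein, reached 18.0, 22.9 and 14.6. The number of early falls that were higher again was 25 after quantile normalization and between 5 and 14 when 1 array was left out.

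In the immediate-early list of 30 measured genes, 9 were lower at 6 h (30% against 14.1% of all genes) and 4 higher (13.3% against 10.9%). The median difference was -0.28. The 9 were Egr3, Fos, Ccn2, Egr1, Zfp36, Nr4a3, Nr4a1, Junb and Ier2, of which Egr3 has the other probe of opposite call given above, leaving 8 without it. The 4 higher were Klf6, Srf, Klf2 and Jund. Despite this, 22 of the 30 were above the control group at 6 h, as were 15.4% of all genes. Fosl1, an AP-1 subunit, had 14.2 or less at 1 h and 21.9, 29.8 and 32.2 at 6 h but was not called (2.31, SE 0.88, adjusted p = 0.089). Of 17 MAP kinase phosphatases, Sprouty inhibitors and mRNA decay factors, 3 were higher and 3 lower. Each was 17.6% of the list, near the shares of all genes (10.9% higher and 14.1% lower). Dusp10 rose by 1.49 and Dusp8 by 1.35, while Dusp6 and Spry4, both inhibitors of ERK signals, fell by 1.32 and 1.36. Dusp10 was not called against control at 6 h (difference 0.80).

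The list of NF-kB inhibitors, subunits and adhesion molecules had 8 of 18 members higher, 2 lower and 8 not called, with a median of 0.63. The share higher was 44.4% against 10.9% of all genes, and the share lower, 11.1%, was near the 14.1% of all genes. All 18 were above control at 6 h, as were 15.4% of all genes. Selp, the adhesion molecule P-selectin, rose from 31.9 to 57.8 at 1 h to 159 to 190 at 6 h (2.15, SE 0.22, adjusted p = 0.00018), and the inhibitors Tnip1, Nfkbie and the subunit gene Relb rose by 1.24, 1.22 and 1.23. The 2 that were lower were Tnfaip3 and Nfkbia, inhibitors of NF-kB that had been among the early rises. Of 30 cytokines, 10 were higher (33.3% against 10.9% of all genes) and 6 lower (20% against 14.1%), and the median was -0.10. Il33, an alarmin, rose from 36.7, 33.8 and 13.1 to 209, 153 and 133 (2.68, adjusted p = 0.0014), and Il1rn, the interleukin-1 receptor antagonist, from 137, 112 and 52.5 to 359, 778 and 764 (2.69, adjusted p = 0.0067). Thus Il1rn was higher at 6 h than at 1 h while Il1a and Il1b were lower. The cytokine median was 0.10 without the first 1 h array and -0.29 without the second 6 h array, so it has no settled direction.

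Chemokines for neutrophils and monocytes and those for T cells differed in their counts. In the first list, 3 of 12 were lower (Cxcl2, Ccl3 and Cxcl12) and 1 was higher (Cxcl5), with a median of -0.01. These shares were 25% lower and 8.33% higher, against 14.1% and 10.9% of all genes. Cxcl5 went from floor, 11.1 and floor to 21.8, 21.4 and 35.7, and Cxcl12, a chemokine made in the resting liver, from 847 to 1026 to 222 to 458 without an early rise. In the second, 4 of 9 were higher (44.4%), none was lower, and the median was 2.15. Cxcl9 rose from 2044, 2165 and 849 to 9355, 9819 and 9526, Ccl8 from 6.0, 11 and 22.7 to 106, 101 and 87.2, and Ccl17 from 10 or less to 55.6, 34.9 and 37.7. Ccl22, at 2.15, and Ccl5, at 1.47, were not called. The difference between these 2 lists was not tested.

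The interferon and antigen presentation lists had the largest shares of higher members. Of 29 interferon-inducible GTPases and antiviral genes, 25 were higher (86.2% against 10.9% of all genes), none was lower and the median was 2.25. Their summed signal was 9245 to 12815 on the 1 h arrays and 49660 to 56506 on the 6 h arrays. Ifi47, a GTPase of this group, rose from 374, 391 and 259 to 7271, 7676 and 6479 (4.41, SE 0.17, adjusted p = 2e-06), and the antiviral gene Ifit2 from 29.9, 29.8 and 11.9 to 432, 501 and 307 (4.20, adjusted p = 7.5e-05). Of the 25, 17 were new rises and 8 early rises that went higher. Irf1, an early factor of this response, differed by -0.36 and was not called. Of 19 antigen presentation and immunoproteasome genes, 16 were higher (84.2%) and none lower, with a median of 1.44, and 15 of the 16 were new. Tap1, a peptide transporter, rose from 110, 126 and 88.1 to 1169, 1141 and 953, Psmb9, a subunit of the immunoproteasome, from 250, 216 and 195 to 1890, 1717 and 1624, and Tapbpl, a chaperone of MHC class I, from 155, 138 and 109 to 708, 788 and 638. By contrast only 4 of 26 constitutive proteasome genes were higher, the largest being Psma1 at 0.91 and Psma5 at 0.79, a share of 15.4% close to the background. That count was 10 after quantile normalization and 9 without the first 1 h array.

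Acute-phase genes, most of them secreted by hepatocytes, were higher in 22 of 27 (81.5% against 10.9% of all genes) and lower in none, with a median of 0.73. At 6 h all 27 were above the control group, as were 15.4% of all genes. Besides A2m, Saa3, a serum amyloid, rose from 1165, 1196 and 1177 to 10582, 11418 and 11504, Orm2, an orosomucoid, from 648, 530 and 413 to 4545, 4392 and 4415, and the endotoxin receptor Cd14 from 289, 228 and 192 to 1722, 2673 and 2276. Ribosome biogenesis genes were higher in 12 of 27 (44.4%), lower in none, with a median of 0.42. Heatr1, needed for rRNA transcription, rose from 240, 240 and 218 to 809, 959 and 814 (1.88, SE 0.12, adjusted p = 1.4e-05), and Nop58 and Tsr1 rose by 1.49 and 1.35. Within the heat shock and unfolded protein response list, 9 of 23 were higher (39.1%) and 2 lower (8.7% against 14.1% of all genes). The 2 were the cytosolic chaperones Hspa1a and Dnajb1, whereas Sdf2l1, a protein of the endoplasmic reticulum, rose from 158 to 162 at 1 h to 789, 492 and 704 (2.01, adjusted p = 0.0050) and Asns, asparagine synthetase, from 26.2, 20.6 and 16.6 to 88.6, 58.0 and 85.5.

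Of 21 growth arrest and cell death genes, 11 were higher (52.4% against 10.9% of all genes) and 2 lower (9.52% against 14.1%). The 2 lower were Phlda1 and Gadd45b, and the median was 0.93. Cdkn1a, the cell cycle inhibitor p21, rose from 65.4, 67.4 and 67.5 to 330, 794 and 1098, Mlkl, the effector of necroptosis, from 45.5, 28.9 and 41.9 to 449, 411 and 445, and Tnfrsf12a, the TWEAK receptor, from 73.6, 51.8 and 42.4 to 271, 316 and 317. Of 17 hypoxia and glycolysis genes, 6 were higher (35.3% against 10.9% of all genes) and 2 lower (11.8% against 14.1%). Hk2, a hexokinase, was up by 1.99, Hk1 by 1.44 and Pfkfb3, a regulator of glycolysis, by 1.68. The glucose transporter Slc2a1 was up by 1.31 but not called against control at 6 h (difference 0.85). Pfkfb3 lost its call in 5 of the 9 omissions of an array. In the list of metallothioneins and oxidative stress genes, 2 of 16 were higher and 3 lower. These shares, 12.5% and 18.8%, were near those of all genes (10.9% and 14.1%). The enzymes of glutathione synthesis Gclc and Gclm fell by 1.52 and 0.98.

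Lists of hepatocyte metabolism differed in their counts. Of 21 bile acid synthesis and transport genes, 14 fell (66.7% against 14.1% of all genes) and 1 rose, with a median of -1.01. Besides Cyp7a1, Klb, the coreceptor for FGF19-type hormones, fell from 348, 272 and 252 to 52.7, 48.2 and 23.7, Abcg8, a sterol exporter, from 569, 484 and 661 to 114, 99.0 and 84.0, and Cyp8b1, the sterol hydroxylase of cholic acid synthesis, from 1637, 1520 and 1466 to 373, 472 and 344. Cytochrome P450 and drug metabolism genes fell in 15 of 25 (60%) and rose in none, with a median of -0.62. Nr1i3, the xenobiotic receptor CAR, fell by 2.35 and Fmo1 by 1.75. Cyp2b10 fell by 1.42 (adjusted p = 0.044) and lost its call in 7 of the 9 omissions, and Ahr, the dioxin receptor, fell by 1.21. Gluconeogenesis, amino acid and urea cycle genes fell in 11 of 21 (52.4%) and rose in 2 (9.52% against 10.9% of all genes). Hal, histidine ammonia lyase, fell by 2.38 and Got1, an aspartate aminotransferase, by 2.21, while Ass1, an enzyme of the urea cycle, was higher at 6 h (1.58, adjusted p = 0.022) after a 1 h signal of 45.2 to 95.1 that lay below its control range of 148 to 242.

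Fatty acid oxidation genes fell in 8 of 18 (44.4% against 14.1% of all genes) and rose in none, with a median of -0.44. Ppara, the nuclear receptor of this pathway, fell from 1441, 1454 and 1477 to 574, 704 and 425, having been lower still at 3 h, at 258 to 337, and Crot and Bdh1 fell by 1.23 and 0.87. Cholesterol and fatty acid synthesis genes were mixed, with 2 higher and 2 lower of 17. Each was 11.8% of the list, near the shares of all genes (10.9% higher and 14.1% lower). Srebf1 and the lipogenic enzyme Acly fell by 1.64 each, while Srebf2, the regulator of sterol synthesis, rose by 1.50 and Sqle by 1.46. Coagulation and fibrinolysis genes fell in 5 of 19 (26.3% against 14.1% of all genes) and rose in 2 (10.5% against 10.9%). Plaur, the urokinase receptor, rose by 2.25, and the liver products Serpind1 and F7 fell by 1.30 and 0.94. Thbs1, at 1.26, was not called (adjusted p = 0.17). Circadian clock genes fell in 7 of 19 (36.8% against 14.1% of all genes) and rose in 1 (5.26% against 10.9%). Dbp and Hlf, output factors of the clock, fell from 966 to 1366 to 79.2 to 408 and by 2.21, and Usp2 by 2.41. Arntl, the positive arm of the clock, read 14.5 to 42.3 at 1 h and 67.5 to 118 at 6 h without a call (1.86, adjusted p = 0.078). For clock genes the hour of the day is known to set the level. Its part in the result cannot be told apart here, nor can it for genes of the other lists and classes.

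**Figure D5:**
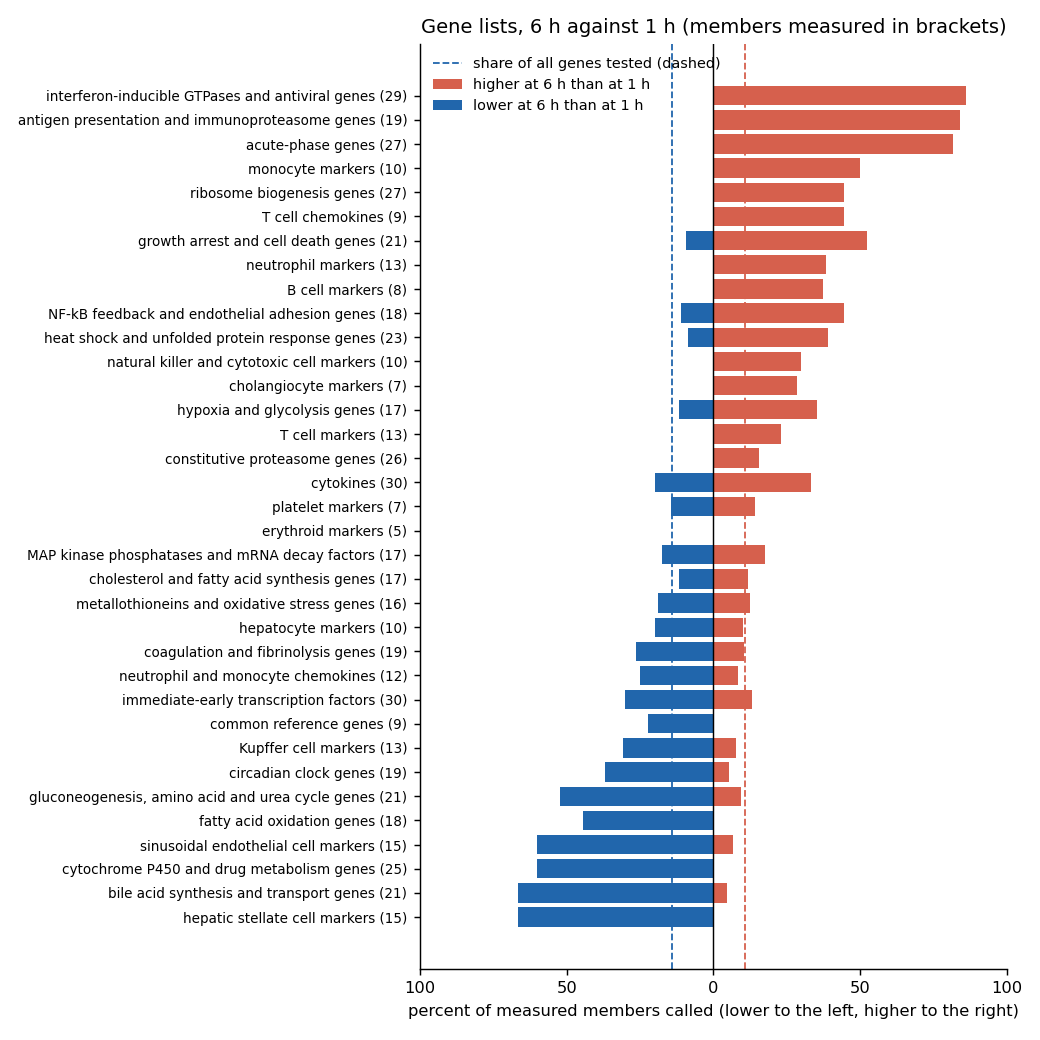
Percent of the measured members of each of 35 gene lists that were called higher (right, red) or lower (left, blue) at 6 h than at 1 h, with the share of all genes as dashed lines (10.9% higher, 14.1% lower). Interferon, antigen presentation and acute-phase lists reach over 80% higher, and the stellate cell and bile acid lists 66.7% lower.

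The 25 genes that the study selected from these same arrays, through a co-expression network of genes with a steady course after ConA, are not independent evidence of a direction. They were all lower at 6 h than at 1 h, and all were new falls. Their differences ran from -3.56 to -0.67, with a median of -1.82. Map2k6, a MAP kinase kinase, had the largest, from 91.0, 88.7 and 122 at 1 h to 9.3, 6.5 and 10.0 at 6 h, and Tert, the catalytic subunit of telomerase, went from 86.2, 40.6 and 40.1 to 4.8, 4.5 and 7.0. Klb, Car5a, a mitochondrial carbonic anhydrase, and Pde7b, a phosphodiesterase, fell by 2.88, 2.85 and 2.81. Sox5, the nucleoside transporter Slc29a1, Colec11, Msrb2, Hlf, Fn3k and Polg2 fell by 2.00 to 2.61. Stard5, Aldh8a1, Fastkd1, Colec12, Gpd1l, Cdh2, Mpdz, Ormdl1, Fbxo3 and Pard3 differed by -1.82 to -1.32, and Cmtm8, Mtap and Dpp4 by -1.19, -1.02 and -0.67. At 1 h these genes differed from the control group by -0.27 to 0.34, and on the 3 h arrays all 25 means lay below the 1 h means. The direction was not the same in the paper's own real-time RT-PCR, which compared each time with control. There several genes had higher means at 6 h, among them Mpdz, Hlf and Dpp4, with significance for Dpp4. Others, among them Gpd1l, Car5a and Pde7b, were significantly lower at 6 h.

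Markers of some cell types moved with the comparison, while those of others had few calls or shares near those of all genes. The part of cell types in the results above was not tested. Hepatocyte markers, which are the defining transcripts of the labelled tissue, were abundant at both times, with a summed signal of 83789 to 90592 at 1 h and 81974 to 86409 at 6 h. Of 10, 1 was higher (Hnf4a, 0.57) and 2 lower (Rbp4, -0.30, and Fabp1, -0.26), with a median of -0.05. These shares, 10% and 20%, were near those of all genes (10.9% and 14.1%). Sinusoidal endothelial markers fell in 9 of 15 (60%) and rose in 1 (6.67%), Pecam1 at 0.83. Their sums were 3423 to 3965 at 1 h and 1953 to 2197 at 6 h. Tek, Ptprb, Gpr182 and Oit3 fell by 3.48, 2.92, 2.80 and 2.52, whereas Lyve1, Stab2, Cdh5 and Dnase1l3 were not called. Stellate cell markers fell in 10 of 15 (66.7%) and rose in none. Lrat, which stores retinol, Colec11, Pdgfrb and Col1a1 fell by 3.02, 2.42, 2.15 and 1.30, and Des, Rgs5 and Ecm1 were not called. The number of lower stellate markers dropped to 4 without the first 1 h array, to 5 without the second 1 h array or replicate 3 at 6 h, and to 6 without the first 6 h array.

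Kupffer cell markers were lower in 4 of 13 (30.8% against 14.1% of all genes) and higher in 1 (7.69% against 10.9%). Their sums were 4322 to 4749 at 1 h and 2246 to 2756 at 6 h. Cd163 fell as given above, Slc40a1 and Vsig4 fell by 1.94 and 1.78, and Clec4f was also called lower, while Marco, a scavenger receptor also made by other macrophages, rose from floor, floor and 8.5 to 65.5, 35.7 and 30.6, and C1qa, C1qb, C1qc, Adgre1 and Timd4 were not called. Of the markers of blood leukocytes, some were called higher and none lower, and most were not called. Neutrophil markers rose in 5 of 13 (38.5%), with sums of 980 to 1302 at 1 h and 1846 to 2856 at 6 h. Camp and Ngp rose by 2.54 and 2.02, while Elane and Mpo were not called. Monocyte markers rose in 5 of 10 (50%), and 8 rose without the second 1 h array. The 5 were Chil3, Cd14, Plac8 (1.69), F13a1 (1.29) and Fn1 (0.40), of which Cd14 is also counted among the acute-phase genes. Chil3 was at floor, floor and 8.0 at 1 h and 25.9, 50.1 and 70.1 at 6 h, and Itgam, at 1.32, was not called. T cell markers rose in 3 of 13 (23.1%), namely Cd2 (2.41), Il2ra (1.86) and Cd28 (1.57), and none fell. The receptor subunits Cd3d, Cd3e, Cd3g and Cd4 were not called, nor was Cd8b1 at 1.52. Cd28 and Il2ra each lost their call in 3 of the 9 omissions, and without the first 6 h array 1 T cell marker was called.

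Natural killer and cytotoxic markers rose in 3 of 10 (30% against 10.9% of all genes), namely Gzmb, Gzma (2.03) and Eomes (1.58). The sums of the list were 100 to 141 at 1 h and 441 to 587 at 6 h. Eomes was not called against control at 6 h (difference 0.32), and its 1 h mean differed from control by -1.26. Nkg7, at 1.63, and Ncr1 and Prf1 were not called. B cell markers rose in 3 of 8 (37.5%), Ms4a1 by 2.38, Cd22 by 1.36 and Ighm by 1.34, and Cd79a at 1.81 was not called. None of the 3 was called against the control group at 6 h, and their 1 h means differed from it by -1.05, -0.43 and -0.96. Of 7 cholangiocyte markers, 2 rose (28.6%), Cldn7 by 1.62 and Sox9 by 1.00, and Krt19 (-0.64) and Cftr (-0.35) were not called. Cldn7 was not called higher than control at 6 h. Of 7 platelet markers, Ppbp rose by 1.10 and Clec1b, also a sinusoidal marker, fell by 1.26, with Gp9 (1.28) and Pf4 (0.33) uncalled. The share called was 14.3% each way, near those of all genes (10.9% higher and 14.1% lower). No erythroid marker was called among 5, the values of Hba-a1, Slc4a1, Alas2 and Car2 being -0.51, 0.41, -0.38 and -0.20 (1 of the 5 at an adjusted p under 0.05 without the second 1 h array). Among 9 common reference genes Gusb fell by 0.72 and Sdha by 0.29, and Ywhaz (0.31) and Tbp (0.23) were not called.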

How the data were processed

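Liver RNA of single mice was hybridised to 12 arrays, and the deposited table held 1 column of linear signal intensity per array. The authors' labels name MAS5 (version 5.0) while their methods name RMA; the intensity distributions differed between arrays, and the values were used as deposited. Per array, 45037 probes remained after 64 control probes were left out; 34945 had 1 gene symbol (34741 updated through Entrez IDs), 932 several and 9160 none. Signals were floored at the 20th percentile of the table (3.04) and log2 transformed. Each of 18193 genes was represented by the probe with the highest mean. The 4 group means were fitted over all 12 arrays with limma 3.58.1 (R 4.3.3), with empirical Bayes moderation, contrasts between times and Benjamini-Hochberg adjustment over all genes at 0.05. All columns were matched to a sample, and the number of arrays limits the precision. The fit was tested on simulated data.

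A gene with all 3 arrays of a group at the floor was given a bound and not ranked. Named were, among genes called without overlap of the arrays, the 12 largest rises and falls and the 8 largest differences per class (predicted genes were passed over). The 4 largest differences per gene list, called or not, and the genes named by the study were added. Further list members are named as called or not called, and those outside all lists were named after their values were seen. Members, lists and motifs were chosen with earlier results of these data known. Of the genes called that had other probes, 2667, another probe was called the same way in 1250 and the opposite way in 38. Alternatives were another normalization, pseudocount, filter, variance trend, replicate block, the omission of each array, all probes, and a minimum fold change. The labels do not say that a replicate number marks a shared batch. 1 gene selected by the study is not reported here.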

Additional observations from a re-analysis of the deposited data

How the results depend on the processing

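Quantile normalization and equal array medians kept the direction of every gene called in both fits, as none of the 18193 genes was called in opposite directions. They gave 2352 and 1940 genes higher and 2861 and 3045 lower at 6 h than at 1 h. Early falls that were higher again numbered 9, and 25 and 17 under these scalings. With genes brighter than the median, 162 early rises were higher still in place of 95. Counted over all probes, there were 3613 higher and 4090 lower probes, 141 early rises lower at 6 h, 90 ended, 153 higher still, 2866 new rises, 3029 new falls and 42 early falls that were higher again, since a gene can have several probes. With a change of at least 2-fold required besides the test, 870 genes were higher and 1118 lower, with 39 early rises lower, 51 higher still, 673 new rises and 837 new falls. Leaving out each array of the 0 h, 1 h and 6 h groups in turn gave 1490 to 2044 genes higher, 1887 to 2560 lower, 46 to 74 early rises lower, 21 to 42 ended, 47 to 109 higher still, 1239 to 1729 new rises, 1487 to 1931 new falls and 5 to 14 early falls higher again. The other counts stayed within 1.5 times of the reported ones.

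With a replicate block the counts were 1945 higher and 2595 lower, 56 early rises lower, 23 ended, 83 higher still, 1633 new rises, 2001 new falls and 8 early falls higher again. The deviations of arrays with the same number correlated between -0.0054 and 0.041, so the numbers were not taken as pairs. Over the 200 named genes and their alternatives, 3025 values stayed on their side of the threshold, 103 were no longer called and 19 were newly called, and none changed sign. Depth cannot be given for arrays, and genes near the floor of 3.04 have understated differences.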
